A study of Saccharomyces cerevisiae with 9 samples.

Results

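SSA1, BUD14, ERF2, YDR391C and AVT7 are 5 protein-coding genes of Saccharomyces cerevisiae that each have a tRNA gene within 500 bp past their end. They were selected on measured values: their 3′ ends differed little between Bdp1AA and WT and lay farther from the gene in Bdp1AA Rna15AA. They are 5 of the 6516 features listed in the series, and 104 other listed coding genes are flanked by a tRNA gene in the same way. Because the selection used these contrasts, the shifts of the 5 genes are given as a description and without a test.

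Total RNA was sequenced directly on the Oxford Nanopore platform, and the last aligned base of a read was taken as the 3′ end of its transcript. The study had 3 groups of 3 libraries, all from cultures given rapamycin for 2 h. Bdp1AA Rna15AA was HHY168 fpr1delta::hphMX4 with BDP1-FRB::kanMX6 and RNA15-FRB::His, Bdp1AA carried BDP1-FRB::kanMX6 without the tagged RNA15, and the group labelled WT was HHY168 fpr1delta::hphMX4 with neither tag. A strain with the RNA15 tag and untagged BDP1 is not analysed here, so the data do not measure a loss of Rna15 with Bdp1 in place.

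In anchor-away, rapamycin joins an FRB-tagged nuclear protein to an anchor that carries it out of the nucleus. TFIIIB, of which Bdp1 is 1 component, sits upstream of tRNA genes and brings RNA polymerase III to them. Rna15 binds RNA near the poly(A) site as part of cleavage factor IA, needed to cut and polyadenylate mRNA. Inside a tRNA gene, TFIIIC binds the A box and the B box and places TFIIIB upstream.

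The deposited values were whole multiples of a step, read here as the value of 1 read, and each group has 1 table for its 3 libraries together. The tables held 7740285 reads in Bdp1AA Rna15AA, 16661847 in Bdp1AA and 24559388 in WT. Positions were listed from 11 reads in Bdp1AA Rna15AA, 2 in Bdp1AA and 11 in WT, and all were set to a common minimum signal of 0.834, which is 11, 17 and 20 reads in that order. With 1 column per group there is no spread between libraries, and the intervals and standard errors below cover counting error only. A position below a table's minimum is called not listed, which is not evidence of absence. Shares, mean ends and their intervals are over listed reads only. In a gene with few reads they can be off where part of the ends is scattered. At the tagged genes, downstream reads of BDP1 were listed in neither depletion and numbered 340 in WT. Those of RNA15 were not listed in Bdp1AA Rna15AA and numbered 343 in Bdp1AA and 461 in WT. RNA15 reads were still present in Bdp1AA Rna15AA, where 382 ended inside the gene, against none listed there in Bdp1AA or WT. FPR1, which the strain label gives as deleted in all 3 groups, had no downstream reads listed in either depletion and 158 in WT. At FPR1 the group labelled WT therefore goes against its label, and this touches each comparison with WT below.

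The 5 downstream tRNA genes are shown because the position of the ends is read against them, with the B box found by the pattern GTTCNANNC in capitals. This pattern occurs on the gene's own strand in 270 of 275 nuclear tRNA genes (98.2%), so its presence does not set these 5 apart. The sequences are from the RefSeq R64 genome, 5′ to 3′ on the tRNA gene's strand.
tP(UGG)A past SSA1, chrI:139152-139254, plus strand: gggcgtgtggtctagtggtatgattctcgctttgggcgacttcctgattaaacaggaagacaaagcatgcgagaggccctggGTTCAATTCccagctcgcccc
tL(CAA)L past ERF2, chrXII:628383-628497, plus strand: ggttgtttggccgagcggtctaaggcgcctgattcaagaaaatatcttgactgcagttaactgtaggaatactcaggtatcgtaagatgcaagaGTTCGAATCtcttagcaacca
tG(CCC)D past YDR391C, chrIV:1257008-1257079, minus strand: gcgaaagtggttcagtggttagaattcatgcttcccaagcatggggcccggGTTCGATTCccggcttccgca
tA(UGC)A past BUD14, chrI:166267-166339, plus strand: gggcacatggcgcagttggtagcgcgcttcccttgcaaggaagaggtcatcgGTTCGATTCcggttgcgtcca
tRNA-Glu YNCI0004W past AVT7, chrIX:197592-197663, plus strand: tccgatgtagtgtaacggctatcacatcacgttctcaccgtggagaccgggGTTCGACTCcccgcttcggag

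The end windows are shown so that the sequence around the most used WT end can be set beside that of the most used end beyond the tRNA gene in Bdp1AA Rna15AA. Each window is 30 bases of the R64 genome on the gene's strand, and the capital is the last aligned base.
SSA1, WT end, 155 nt past the gene, chrI:139338-139367: atttttcaattaaaaaaaaAatagagaaag
SSA1, end beyond the tRNA gene, 521 nt, chrI:138972-139001: agattctatttcaaataaaAatcaattatc
ERF2, WT end, 71 nt, chrXII:628249-628278: aaggttactgaaaggagtgAattccgccat
ERF2, end beyond the tRNA gene, 474 nt, chrXII:628652-628681: atattagtgtctggtttaaAagtcatactt
YDR391C, WT end, 81 nt, chrIV:1257267-1257296: gacgacattttggagcatgCactgtataac
YDR391C, end beyond the tRNA gene, 407 nt, chrIV:1256941-1256970: ttaaagtttttcaaaggcgAagtatgttta
BUD14, WT end, 186 nt, chrI:166546-166575: cttacttcttctattttttAactttgcttc
BUD14, end beyond the tRNA gene, 880 nt, chrI:165852-165881: tagcctttatcaacaatggAatcccaacaa
AVT7, WT end, 91 nt, chrIX:197830-197859: gactcaaagttttatgcttAacgcgatcat
AVT7, end beyond the tRNA gene, 776 nt, chrIX:197145-197174: atcccaacaattatctcaaAattcacccat
A genomic A at the end cannot be told apart from the first base of the poly(A) tail, so the position within a run of A is uncertain. In both SSA1 windows the capital lies within such a run.

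All 5 genes had 3′ ends beyond the tRNA gene in Bdp1AA Rna15AA, and none had one above the common minimum in Bdp1AA or WT. Of the other tRNA-flanked genes listed, 29 of 87 had such ends in Bdp1AA Rna15AA, 8 of 93 in Bdp1AA and 2 of 99 in WT. The share of downstream reads ending there ran from 2.61% at SSA1 to 82.8% at ERF2. The mean end, in nt past the annotated gene end, lay between 20.5 and 331 nt farther out in Bdp1AA Rna15AA than in Bdp1AA over the 5 genes. Between Bdp1AA and WT the mean end differed by -0.80 to 7.72 nt. The genes differed in where their listed reads ended in Bdp1AA Rna15AA. At ERF2 most ended at 1 position beyond the tRNA gene, and at YDR391C most ended past the kept WT ends but in front of it. SSA1 kept most of its reads at the ends used in WT.

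**Figure D1:**
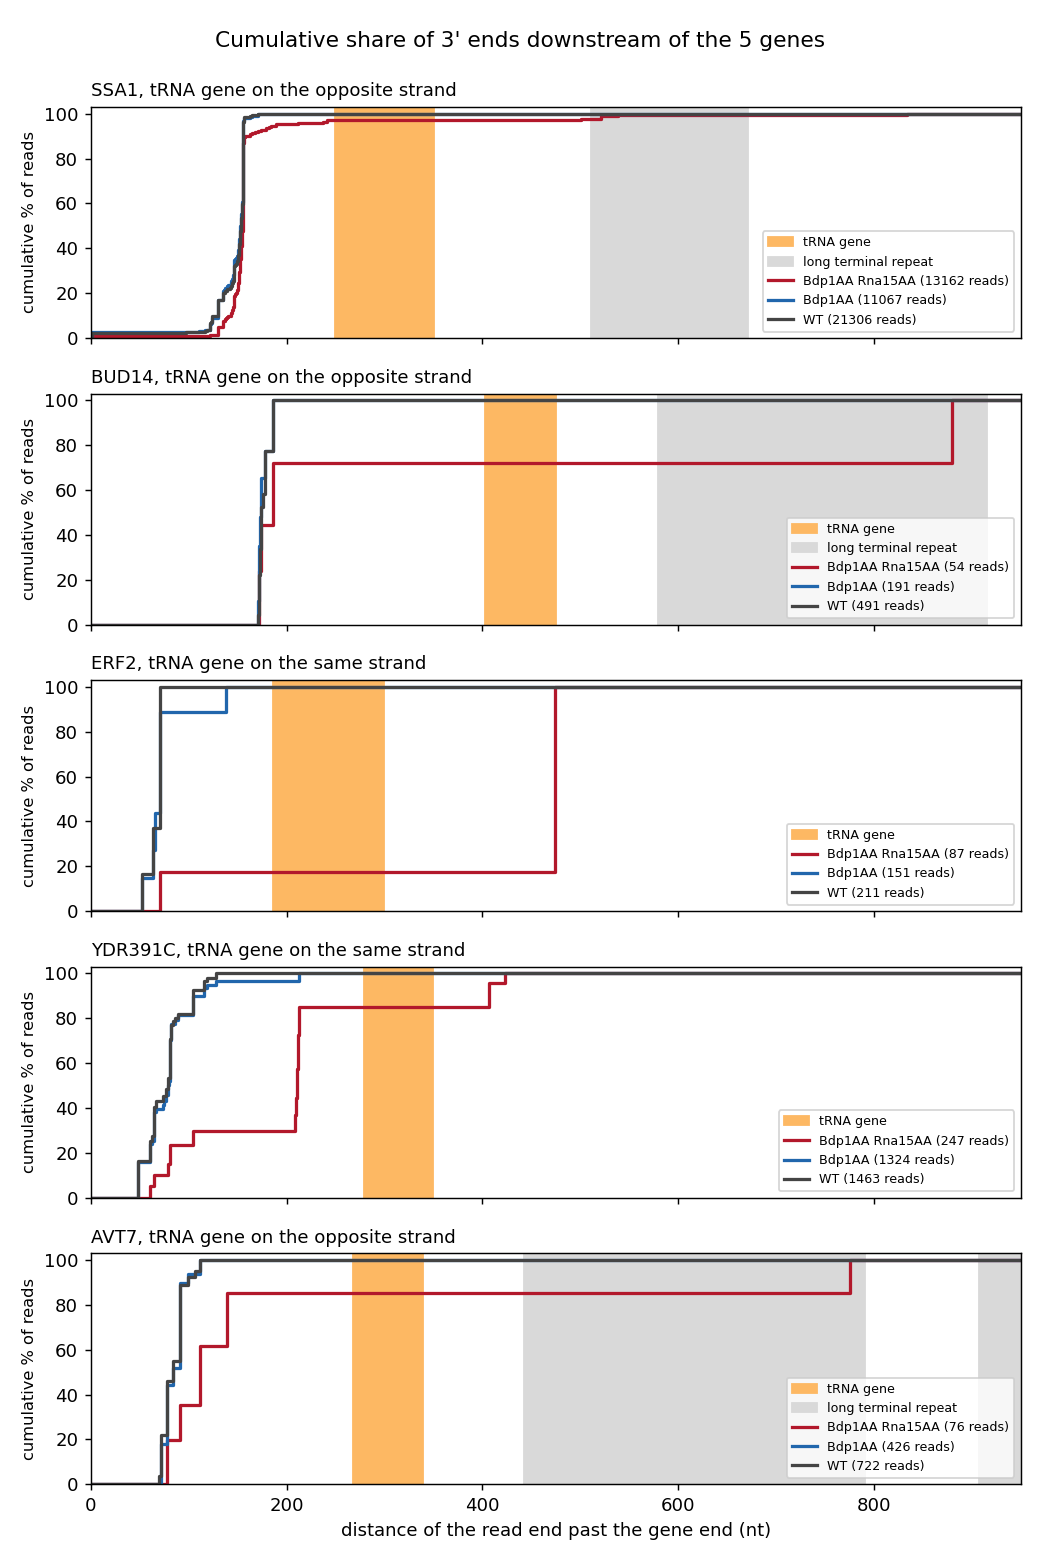
Cumulative share of downstream reads (%, vertical axis) against the distance of the read end past the gene end (nt, horizontal axis) for each gene, with 1 line per group and the tRNA gene and long terminal repeats shaded. The Bdp1AA and WT lines reach 100% before the tRNA gene in all 5 panels, whereas the Bdp1AA Rna15AA line reaches it beyond the tRNA gene, after 82.8% of the reads at ERF2 and 2.61% at SSA1 ended there.

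The cumulative plot shows these positions gene by gene. A shift was called distal from 20 nt where each table of the comparison held 60 reads or more for the gene. BUD14 had 54 reads in Bdp1AA Rna15AA and so was not among the compared genes in the contrasts with that group. Of the other 4, all 4 passed as distal in Bdp1AA Rna15AA against Bdp1AA, where 42.2% of the 2935 genes compared did. Against WT 3 of the 4 passed, where 41.9% of 3003 genes did. In Bdp1AA against WT none of the 5 passed, where 2.33% of 4543 genes did. The rule used these contrasts, so nothing is read from the counts.

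SSA1, on chromosome I at 139503-141431 on the minus strand, encodes a cytosolic Hsp70 chaperone that folds proteins with ATP. Its tRNA gene, tP(UGG)A, is on the opposite strand, 249 to 351 nt past the gene, and the next gene on, ERP2, is 1158 nt away. SSA1 had 13162 downstream reads in Bdp1AA Rna15AA, 11067 in Bdp1AA and 21306 in WT, far more than the other 4 genes. Its mean end was 164 nt past the gene in Bdp1AA Rna15AA, 144 nt in Bdp1AA and 145 nt in WT. The shift was 20.5 ± 0.71 nt (counting SE) in Bdp1AA Rna15AA against Bdp1AA and 19.7 nt against WT, just inside and just outside the 20 nt used to call one. The SSA1 coding sequence is nearly identical to that of SSA2, and the assignment of reads between them is not documented in the sources used here.

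The most used SSA1 end was the same in all 3 groups, 155 nt past the gene, with 38.9% of reads in Bdp1AA Rna15AA, 36.2% in Bdp1AA and 36.4% in WT. What changed lay on either side of it. Reads ending nearer to the gene made up 47.9% in Bdp1AA Rna15AA, 60.5% in Bdp1AA and 59.9% in WT. At 130 nt, for example, SSA1 had 462 reads (3.51%) in Bdp1AA Rna15AA, 891 (7.88% of the deposited downstream reads) in Bdp1AA and 1567 (7.32% of the deposited reads) in WT. At 122 nt the shares of the deposited reads were 0.296% in Bdp1AA Rna15AA, 2.71% in Bdp1AA and 3.20% in WT. Of the reads above the common minimum, the end at 1 nt past the gene took 0.722% in Bdp1AA Rna15AA, 2.84% in Bdp1AA and 2.30% in WT.

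On the far side, 810 SSA1 reads (6.15%, exact 95% interval 5.75 to 6.58) in Bdp1AA Rna15AA ended past 179 nt, the farthest end kept in Bdp1AA and WT. They fell partly before and partly beyond the tRNA gene. Below the common minimum the other groups also listed ends past 179 nt, as far as 218 nt in Bdp1AA and 189 nt in WT. At 189 nt there were 126 reads in Bdp1AA Rna15AA, 10 in Bdp1AA and 14 in WT. A cluster stopped just short of the tRNA gene, with 124 reads at 241 nt against a near edge at 249 nt, and none listed at that position in Bdp1AA or WT. The window around it, shown because it abuts the tRNA gene, again has a run of A before the end.
SSA1, end next to the tRNA gene, 241 nt, chrI:139252-139281: ttatagataggcaaaaaaaAattattcggg
Beyond the tRNA gene 344 reads (2.61%, interval 2.35 to 2.90) ended in Bdp1AA Rna15AA. These formed clusters of 250 reads at 501 to 539 nt, 50 reads at 753 to 770 nt, 33 reads at 834 nt and 11 reads at 893 nt, all short of ERP2. Without the reads beyond the tRNA gene the mean SSA1 end was still farther out, at 153 nt in Bdp1AA Rna15AA, 144 nt in Bdp1AA and 145 nt in WT. The median SSA1 end lay 2 nt farther out in Bdp1AA Rna15AA than in Bdp1AA.

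ERF2, on chromosome XII at 627118-628197 on the plus strand, encodes the catalytic subunit of the palmitoyltransferase that modifies Ras proteins. Its tRNA gene tL(CAA)L lies on the same strand, 186 to 300 nt past the gene, and IRC20 begins 487 nt away on the other strand. ERF2 had few reads: 87 in Bdp1AA Rna15AA, 151 in Bdp1AA and 211 in WT. Its mean end was 405 nt past the gene in Bdp1AA Rna15AA, 73.9 nt in Bdp1AA and 66.2 nt in WT. The shift of 331 ± 16.4 nt against Bdp1AA was the widest of the 4 compared genes, and that against WT was 338 nt.

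The ERF2 reads of Bdp1AA Rna15AA were listed at 2 positions. The end at 71 nt, the most used one in Bdp1AA and WT, held 15 reads (17.2%) in Bdp1AA Rna15AA, 68 (45.0%) in Bdp1AA and 133 (63.0%) in WT. The end at 474 nt, beyond the tRNA gene, held 72 of 87 reads (82.8%, interval 73.2 to 90.0) in Bdp1AA Rna15AA. Unlisted reads at scattered ends nearer to the gene would lower this share, and the interval does not cover them. Such scatter was seen in Bdp1AA, with 229 ERF2 reads at 22 positions as deposited and 151 at 5 positions kept. It lies 174 nt past the far edge of tL(CAA)L and short of IRC20. The ends at 52 and 63 nt, used in Bdp1AA and WT, were not listed in Bdp1AA Rna15AA, where a position with fewer than 11 reads would not be.

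The distal end of ERF2 is not unique to the double depletion once the tRNA feature is read with it. The same position was also listed under tL(CAA)L, with 249 reads (signal 18.9) in Bdp1AA Rna15AA, 51 (signal 2.60) in Bdp1AA and 28 (signal 1.20) in WT. Reads listed there under ERF2 were 72 in Bdp1AA Rna15AA, 6 in Bdp1AA and none listed in WT. Counting each position once, under the nearest gene upstream on its strand, gave the end to tL(CAA)L, and the ERF2 shift against Bdp1AA was then -2.94 nt. The assignment of reads that cover both features is not documented either.

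YDR391C, on chromosome IV at 1257358-1258056 on the minus strand, is named IAT4 in the reference annotation and described there as an indolamine N-acetyltransferase. Its tRNA gene tG(CCC)D is on the same strand, 279 to 350 nt past the gene, with UBA2 511 nt away. It had 247 downstream reads in Bdp1AA Rna15AA, 1324 in Bdp1AA and 1463 in WT. The mean end was 202 nt past the gene in Bdp1AA Rna15AA, 80.6 nt in Bdp1AA and 76.1 nt in WT. The shift was 121 ± 6.80 nt against Bdp1AA and 126 nt against WT.

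At YDR391C most of the reads past the kept WT ends in Bdp1AA Rna15AA stopped before the tRNA gene. The downstream signal of the gene was 18.7 in Bdp1AA Rna15AA and 67.5 in Bdp1AA. The shares below therefore do not show whether reads moved outward or reads at the nearer ends were lost. Ends at 209 to 213 nt took 136 reads (55.1%, interval 48.6 to 61.4) in Bdp1AA Rna15AA, against 46 reads (3.47%, interval 2.55 to 4.61) in Bdp1AA, and were not listed in WT. WT did list 12 reads at 214 nt, the neighbouring base, below the common minimum. The 46 kept reads of Bdp1AA all ended at 213 nt, where the signal was 2.34 in Bdp1AA and 2.35 in Bdp1AA Rna15AA. Below the common minimum Bdp1AA also listed 15, 5, 14 and 15 reads at 209, 210, 211 and 212 nt. These ends were thus used in Bdp1AA too. The ends at 48 to 128 nt took 30.0% of reads in Bdp1AA Rna15AA, 96.5% in Bdp1AA and all reads in WT. Beyond the tRNA gene 37 reads (15.0%, interval 10.8 to 20.1) ended in Bdp1AA Rna15AA, at 407 and 423 nt. The window of the most used end before the tRNA gene is shown because it carries the largest share in that group.
YDR391C, end before the tRNA gene, 212 nt, chrIV:1257136-1257165: caattactattttaggtatTtctttgcgcg
At the 2 ends beyond the tRNA gene, 61 reads were listed under tG(CCC)D in Bdp1AA Rna15AA and 8 in Bdp1AA. Whether they include the reads listed under YDR391C is not documented. Counted under the nearest gene, the YDR391C shift against Bdp1AA was 84.3 nt, so the ends before the tRNA gene alone kept it past 20 nt.

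BUD14, on chromosome I at 166742-168871 on the minus strand, encodes a regulator of the Glc7 phosphatase and of the formin Bnr1, which assembles actin cables. Its tRNA gene tA(UGC)A is on the opposite strand and the farthest of the 5, at 403 to 475 nt, and the Ty1 gene YAR010C begins 876 nt away. BUD14 had 54 reads in Bdp1AA Rna15AA, 191 in Bdp1AA and 491 in WT. The mean end was 373 nt past the gene in Bdp1AA Rna15AA, 176 nt in Bdp1AA and 177 nt in WT. That is 197 ± 42.8 nt farther out than in Bdp1AA, with a larger counting error than at the other 4.

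In all 3 groups BUD14 reads ended within 171 to 186 nt past the gene, with 39 of 54 reads (72.2%) in Bdp1AA Rna15AA and all kept reads in Bdp1AA and WT. The remaining 15 reads of Bdp1AA Rna15AA (27.8%, interval 16.5 to 41.6) shared 1 end at 880 nt, 405 nt past the tRNA gene. This end lies within the first bases of YAR010C, and under YAR010C no reads were listed at the same position in Bdp1AA Rna15AA or Bdp1AA, against 174 in WT. Reads were thus listed at the position in WT too, but not under BUD14. It lies in a long terminal repeat, the end of a Ty retrotransposon, and reads in such repeats can align to several copies. The copy that these reads came from is therefore not known. The median BUD14 end lay 12 nt farther out in Bdp1AA Rna15AA than in Bdp1AA.

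AVT7, on chromosome IX at 197931-199403 on the minus strand, belongs to the family of vacuolar amino acid transporters. Its tRNA gene, for tRNA-Glu, is on the opposite strand, 268 to 339 nt past the gene, and the next gene YIL089W is 1715 nt away. AVT7 had 76 reads in Bdp1AA Rna15AA, 426 in Bdp1AA and 722 in WT. The mean end was 204 nt past the gene in Bdp1AA Rna15AA, 85.3 nt in Bdp1AA and 84.7 nt in WT. The shift was 119 ± 27.1 nt against Bdp1AA and 120 nt against WT.

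AVT7 had a group of ends before the tRNA gene, shifted outward within itself, and 1 far end beyond it. Within 70 to 112 nt ended 61.8% of reads in Bdp1AA Rna15AA and all kept reads in Bdp1AA and WT. The next 2 sets of shares are of the deposited reads. Inside this stretch the end at 112 nt took 20 reads (26.3%) in Bdp1AA Rna15AA, 27 (5.02%) in Bdp1AA and 34 (4.44%) in WT. The end at 91 nt, the most used one in Bdp1AA and WT, took 15.8% in Bdp1AA Rna15AA, 29.9% in Bdp1AA and 31.7% in WT. A further 18 reads (23.7%, interval 14.7 to 34.8) ended at 139 nt in Bdp1AA Rna15AA, where Bdp1AA listed 7 reads and WT none. The window at 139 nt is shown because it is the most used AVT7 end past those of WT.
AVT7, end before the tRNA gene, 139 nt, chrIX:197782-197811: attctatggcacttacaaaAaggtattacc
Beyond the tRNA gene 11 reads (14.5%, interval 7.45 to 24.4) ended at 776 nt in Bdp1AA Rna15AA, the fewest reads that the table lists at a position. Weaker ends would not be seen at this depth.

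**Figure D2:**
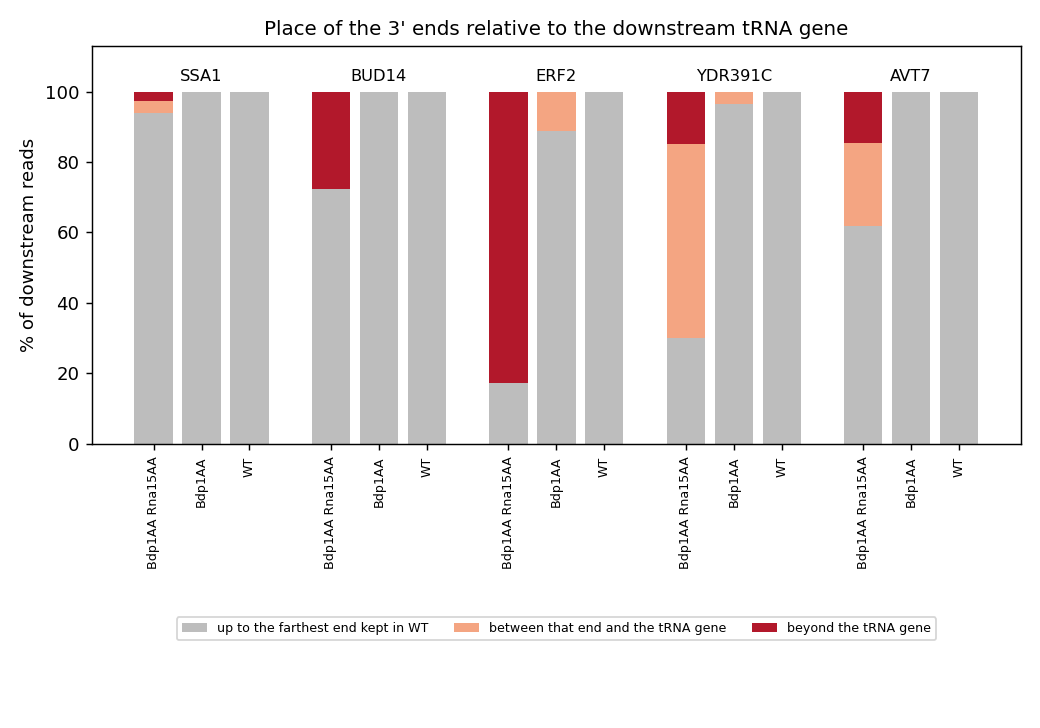
Share of downstream reads (%, vertical axis) by place of the 3′ end for each gene and group: up to the farthest end kept in WT, between that end and the tRNA gene, and beyond the tRNA gene. In Bdp1AA Rna15AA the share beyond the tRNA gene was 2.61% at SSA1, 27.8% at BUD14, 82.8% at ERF2, 15.0% at YDR391C and 14.5% at AVT7, and no such segment appears in Bdp1AA or WT.

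In the plot of end places, the kept ends of Bdp1AA Rna15AA were placed in 2 ways. ERF2 and BUD14 had no kept ends between the WT ends and the tRNA gene. With 87 and 54 reads, ends scattered there at fewer than 11 reads per position would not be listed. At SSA1, YDR391C and AVT7 more reads ended in that interval than beyond the tRNA gene. For AVT7 this rests on 18 against 11 reads, each at 1 position. Ends up to 25 nt apart were joined to 1 site. Usage, the share of reads that would have to change site to turn the profile of Bdp1AA into that of Bdp1AA Rna15AA, differed by 82.8 points at ERF2, 66.6 at YDR391C, 38.2 at AVT7, 27.8 at BUD14 and 2.61 at SSA1. It was at least 20 points in 4 of the 5. At SSA1 the ends from 97 to 241 nt formed 1 site, so changes among them did not count. At AVT7 the ends at 112 and 139 nt fell into different sites. Between Bdp1AA and WT usage differed by 11.3 points at ERF2, 3.47 at YDR391C and 0.537 at SSA1, with none at BUD14 and AVT7.

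The small values of Bdp1AA against WT depend on how faint an end is still kept. Below the common minimum, Bdp1AA listed 9 ERF2 reads (3.93%), 5 YDR391C reads (0.320%) and 2 BUD14 reads (0.683%) beyond the tRNA gene, 2 of the YDR391C reads lying 2823 nt out. WT listed none there, but it lists no position with fewer than 11 reads. ERF2 also had an end at 138 nt with 17 reads (11.3%, interval 6.70 to 17.4) in Bdp1AA that was not listed in WT or Bdp1AA Rna15AA. With every deposited position kept, the mean ERF2 end was 25.3 nt farther out in Bdp1AA than in WT, past 20 nt. That value compares tables with unequal listing minimums. At the lower minimum that the Bdp1AA and WT tables share, 10 and 11 reads, chosen after the data were seen, the difference was 8.68 nt at ERF2 and 10.3 nt at YDR391C. There 40 of 174 ERF2 reads in Bdp1AA (23.0%) ended past the farthest WT end, none of them beyond the tRNA gene. Of these, 17 ended at 138 nt and the rest at 81 and 84 nt, close to the farthest WT end at 79 nt. At that minimum the mean ends of ERF2 and YDR391C thus lay slightly farther out in Bdp1AA. SSA1, BUD14 and AVT7 differed by -0.86, -2.44 and 0.77 nt. Differences of this size cannot be set against a spread between libraries.

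Downstream signal, a level in the deposited unit whose scaling is not documented, moved differently from the ends. The signal was 998 in Bdp1AA Rna15AA, 564 in Bdp1AA and 915 in WT at SSA1. It was 6.60 in Bdp1AA Rna15AA, 7.69 in Bdp1AA and 9.06 in WT at ERF2. It was 18.7 in Bdp1AA Rna15AA, 67.5 in Bdp1AA and 62.8 in WT at YDR391C. SSA1 was thus highest and YDR391C lowest in the double depletion, by very different amounts. BUD14 had 4.09 in Bdp1AA Rna15AA, 9.73 in Bdp1AA and 21.1 in WT, and AVT7 had 5.76 in Bdp1AA Rna15AA, 21.7 in Bdp1AA and 31.0 in WT. In both genes, as at ERF2, the order was Bdp1AA Rna15AA below Bdp1AA below WT.

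**Figure D3:**
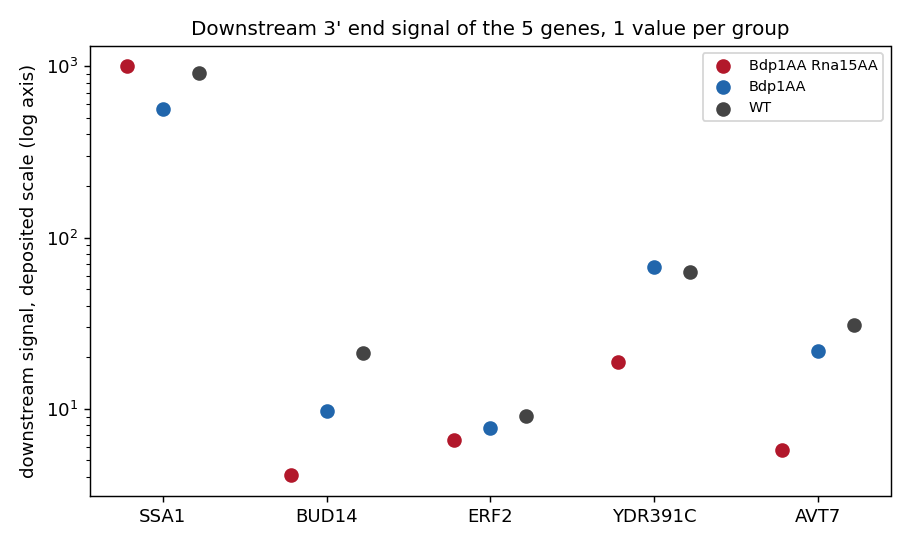
Downstream 3′ end signal on the deposited scale (log axis) for the 5 genes, with 1 point per group holding its 3 libraries together. SSA1 lies at 998 in Bdp1AA Rna15AA, 564 in Bdp1AA and 915 in WT. BUD14, ERF2, YDR391C and AVT7 lie lowest in Bdp1AA Rna15AA, at 4.09, 6.60, 18.7 and 5.76.

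Changes of level were centred on the median over all compared genes, a log2 of -0.34 in Bdp1AA Rna15AA against Bdp1AA, -0.86 against WT and -0.51 in Bdp1AA against WT. Against Bdp1AA, the centred log2 change in Bdp1AA Rna15AA was 1.16 at SSA1 (counting interval 1.12 to 1.20), 0.11 at ERF2 (-0.28 to 0.50), -1.51 at YDR391C (-1.71 to -1.32) and -1.58 at AVT7 (-1.95 to -1.22). So 1 of the 4 compared genes was at least 2-fold higher, where 25% of all genes were, and 2 were at least 2-fold lower, where 25.2% were. Against WT, 1 of the 4 was at least 2-fold lower, AVT7 at -1.57, where 24.6% of all genes were. None was at least 2-fold higher, where 26.1% were, although SSA1 at 0.98 was close. In Bdp1AA against WT the 5 genes lay between -0.60 at BUD14 and 0.62 at YDR391C, with none past 2-fold, where 6.27% of all genes were higher and 9.95% lower. BUD14, with too few reads to be compared in Bdp1AA Rna15AA, lay there at -0.91 (-1.38 to -0.47) against Bdp1AA and -1.51 against WT. In Bdp1AA Rna15AA against Bdp1AA, SSA1 was thus higher and the interval of ERF2 held 0. YDR391C, AVT7 and BUD14 were lower, so the 5 genes did not all go the same way. In a bulk culture fewer cells with a transcript and less of it per cell cannot be told apart.

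The ends beyond the tRNA gene fell into long terminal repeats, the ends of Ty retrotransposons, in 3 of the 5 genes. This was looked at after the data were seen. SSA1 had 199 of its 344 distal reads in a Ty1 repeat of 162 bases on its own strand, and the most used end was base 11 of it. The BUD14 end was base 301 of a repeat of 337 bases, and the AVT7 end base 334 of a repeat of 349 bases, both on the gene's strand. The BUD14 and AVT7 end windows share the run atcccaacaa of 10 bases, which stands after the end in BUD14 and before it in AVT7. Among other tRNA-flanked genes with ends beyond the tRNA gene in Bdp1AA Rna15AA, 13 of 29 had some of them in a repeat, and 48 of the 87 listed in that group have one within 1000 bp. Reads in repeats can align to several copies, and their handling is not documented in the sources used here.

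Letters often found upstream of yeast poly(A) sites were searched on the gene's strand in the 60 bases up to the end. TATATA stood before the most used WT end of BUD14 and AVT7, where 37.4% of 5041 coding genes have it, and before the distal end of ERF2. TACATA stood before no WT end of the 5, where 18.2% of genes have it, and before the distal end of AVT7. AATAAA stood before the WT end of YDR391C, where 15.9% of genes have it, and before the distal end of SSA1. A match is a description of the letters, and no match says only that they are not in this window.

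On the other strand, ends listed under the tRNA gene and lying past it, towards or in the coding gene, were found at 2 of the 3 genes whose tRNA gene is on the opposite strand. At BUD14 none were listed in Bdp1AA Rna15AA, against 1385 reads under tA(UGC)A with a signal of 70.6 in Bdp1AA, and none were listed in WT. The most used of these ends, at position 166644, held 314 reads. In Bdp1AA the signal of 70.6 exceeds the 14.9 of BUD14 itself, both over positions as deposited. At SSA1 none were listed in Bdp1AA Rna15AA, 34 reads under tP(UGG)A were in Bdp1AA, at most 9 at a position and so below what the other tables list, and none were in WT. At AVT7 none were listed in any group. Whether these reads bear on the ends of the facing genes was not tested.

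The strand of the tRNA gene set ERF2 and YDR391C beside few other genes. Of 8 other compared genes whose tRNA gene is transcribed in the same direction, 1 passed as distal in Bdp1AA Rna15AA against Bdp1AA, and of 53 with it on the opposite strand 28 did. That gene is RRP15, a ribosome assembly factor, whose ends moved by 93.1 nt with none of its 212 reads beyond the tRNA gene. In Bdp1AA against WT none of 12 other same-strand genes and 15 of 71 opposite-strand genes passed. Over both strands 29 of 61 others (47.5%) passed in Bdp1AA Rna15AA against Bdp1AA, near the 42.2% of all genes. In Bdp1AA against WT 15 of 83 others (18.1%) passed, and 0.854% of the 4216 genes lacking any tRNA gene within 1000 bp did (36 genes).

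**Figure D4:**
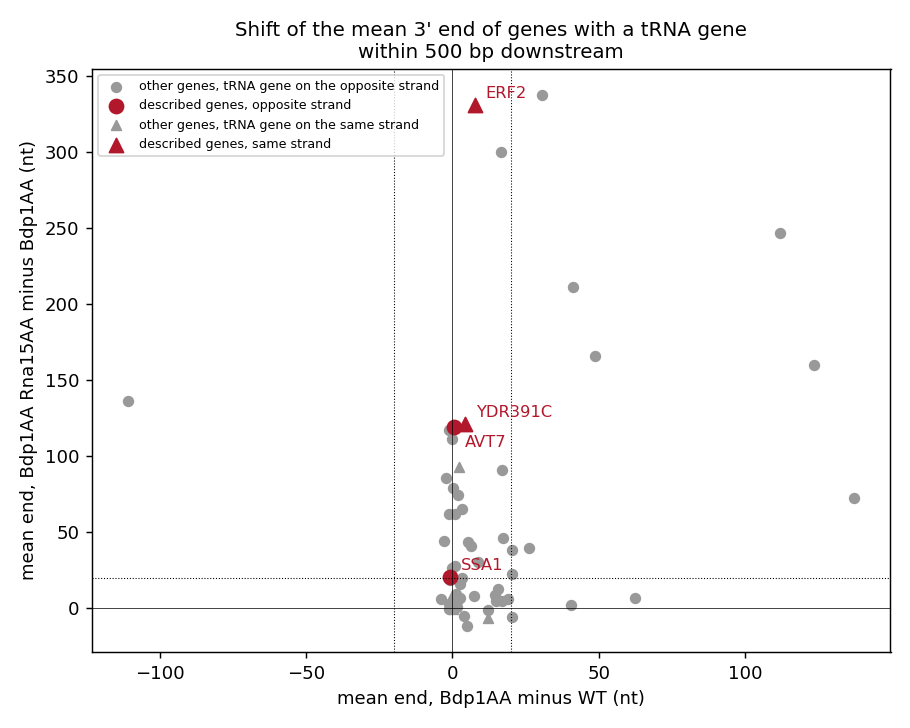
Shift of the mean 3′ end in Bdp1AA Rna15AA against Bdp1AA (nt, vertical axis) and in Bdp1AA against WT (nt, horizontal axis) for the 65 tRNA-flanked genes compared in all 3 tables, with triangles for a tRNA gene on the same strand and dotted lines at 20 nt. ERF2, YDR391C, AVT7 and SSA1, in red, lie near 0 horizontally and at 331, 121, 119 and 20.5 nt vertically, and BUD14 is not drawn because it had 54 reads in Bdp1AA Rna15AA.

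The plot of shifts shows that the pattern that chose the genes was shared by others. Of 65 tRNA-flanked genes compared in all 3 tables, 23 lay within 20 nt in Bdp1AA against WT and at least 20 nt distal in Bdp1AA Rna15AA against Bdp1AA, 4 of them the described genes. Of the 23, 19 had ends beyond the tRNA gene in Bdp1AA Rna15AA. Next to SSA1 at the edge of the call were SEC61 at 20.2 nt, just inside, and MRI1 at 18.5 nt, just outside. By Euclidean distance of the pair of shifts from the median of the 4 genes (2.53 nt in Bdp1AA against WT and 120 nt in Bdp1AA Rna15AA against Bdp1AA), the genes most alike were MRPL10, MEP3, RRP15, PPT1 and ERV1. MRPL10, a mitochondrial ribosomal protein gene, had shifts of 117 nt in Bdp1AA Rna15AA against Bdp1AA and -1.08 nt in Bdp1AA against WT. MEP3, an ammonium permease gene, had 111 nt and -0.22 nt for the same contrasts. This likeness is over 2 contrasts that share the Bdp1AA table.

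Genes of the same families without regard to a tRNA neighbour give the setting. Of the cytosolic Hsp70 and Hsp110 genes, 3 of 7 compared passed as distal in Bdp1AA Rna15AA against Bdp1AA, near the 42.2% of all genes, with a median shift of 15.7 nt against 12.6 nt over all genes. SSA2, the close paralog of SSA1, shifted by 122 nt and SSE1 by 24.5 nt, and SSB1 and SSB2 differed by 15.7 and 3.83 nt. None of the 7 passed in Bdp1AA against WT. In level, 2 of the 7 were at least 2-fold higher in Bdp1AA Rna15AA than in Bdp1AA and none was 2-fold lower, where 25% and 25.2% of all genes were.

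Of the other vacuolar amino acid transporters, 2 of 4 compared passed as distal in Bdp1AA Rna15AA against Bdp1AA, near the 42.2% of all genes. AVT3 shifted by 38.9 nt and AVT4 by 404 nt, while AVT1 and AVT6 differed by -19.98 and 1.34 nt. Among genes that act with Bud14, GLC7, the phosphatase it regulates, was the 1 gene compared and passed with 38.3 nt. None of the 7 other palmitoylation genes had enough reads in Bdp1AA Rna15AA to be compared. SHR5, the partner subunit of Erf2, had 12 reads in Bdp1AA Rna15AA, 208 in Bdp1AA and 303 in WT. None of the genes compared in these 3 lists passed as distal in Bdp1AA against WT.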

How the data were processed

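Total RNA from 9 libraries in 3 groups of 3 was sequenced directly (Oxford Nanopore). The genome build was R64, per the submitters' processing notes; the aligner and the read assignment are not documented in the sources used here. The authors deposited 1 table per group of 3′ end positions per gene with a signal value; the values were whole multiples of a step per table (tolerance 0.001 reads), taken as 1 read. Positions and strands, other values in the deposited tables, were read as genome coordinates, with minus-strand positions raised by 1 after a check of the base composition at the ends.

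Ends past the gene, at a common minimum signal of 0.83413, were summarised as the read-weighted mean distance. Shifts were called from 20 nt where each of the 2 tables held 60 reads or more for the gene, and fold changes of signal from 2-fold after centring on the median gene. Intervals are exact 95% counting intervals (Clopper-Pearson). No p-value was computed, since each table pools its 3 libraries. Python 3.11.15, pandas 2.3.3 and scipy 1.17.1 were used, and the steps were tested on simulated data. There, genes with many reads had all their ends moved by the same distance, and the median shift came out near its true size. Increases of level came out somewhat too large, since more positions pass the minimum in a gene with more reads. Shifts of genes with few reads, or of only part of a gene's ends, were not simulated. Gene and tRNA coordinates and sequences are from RefSeq, build R64, where all 5 genes had the deposited coordinates. The genes described and the related gene lists were chosen with earlier results of these data known. Other genes were named by a fixed rule: the 5 with the closest pair of shifts, and up to 4 per related list with the most WT reads. SEC61 and MRI1 were named after their values were seen. Alternatives were other minimums, the median end, the nearest gene, 120 reads and a 50 nt call.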

Additional observations from a re-analysis of the deposited data

How the results depend on the processing

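Of 61 single shifts recomputed under an alternative, 33 stayed within the 95% counting interval of the main value and 27 left it. The remaining 1, the only shift past 20 nt to change sign, was ERF2 in Bdp1AA Rna15AA against Bdp1AA, -2.94 nt with each position counted under its nearest gene, where its distal end belongs to the tRNA gene. The small BUD14 difference in Bdp1AA against WT also changed sign, to 0.098 nt with the minimum doubled and 3.06 nt as deposited. Counts with a distal shift in Bdp1AA Rna15AA against Bdp1AA: of the described genes, 4 became 2 with at least 120 reads (2 genes compared) and 2 with the minimum doubled (3 compared). Of other tRNA-flanked genes 29 became 18 at 50 nt, 18 with the minimum doubled and 10 by the median end, and of all genes 1238 became 801 at 50 nt and 640 by the median. Against WT, 3 described genes became 1 with at least 120 reads, 36 flanked genes became 21 at 50 nt and 18 by the median, and 1259 genes became 822 and 669. In Bdp1AA against WT, 0 described genes became 1 (ERF2) with positions as deposited, 15 flanked genes became 5 at 50 nt, and 106 genes became 61 at 50 nt, 61 by the median, 60 under the nearest gene and 337 as deposited. Described genes with ends beyond the tRNA gene were 3 instead of 5 in Bdp1AA Rna15AA with the minimum doubled or the nearest gene, and 3 instead of 0 in Bdp1AA as deposited. Those with a usage difference of at least 20 points were 2 instead of 4 with the minimum doubled. No paired analysis was possible because each table pools its 3 libraries, and leaving out each replicate in turn was not run for the same reason. The read number of BUD14, ERF2 and AVT7 in Bdp1AA Rna15AA, 54 to 87, limits their precision.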
